A study of Mus musculus with 6 samples.

Results

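Hox genes encode the homeodomain transcription factors that mark position along the body and limb axes. Every row of the deposited table whose symbol is Hox, a cluster letter from a to d and a number was taken, which gave 26 of 29587 gene rows. There were 9 genes of the HoxA cluster on chromosome 6, 8 of HoxB on chromosome 11, 8 of HoxC on chromosome 15 and 1 of HoxD, Hoxd4, on chromosome 2. The other 13 Hox genes of the GENCODE M21 annotation were not analysed here.

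The study compared messenger RNA of apoptotic osteoblasts, the bone-forming cells after induced death, from young and from old mice, with 3 libraries per group. Per the labels' protocols, cells grown out of bone pieces were passaged 3 times, taken through 3 days of osteogenic medium and killed by 0.5 hours of ultraviolet light, in both groups alike. The labels give the genotype as none, the treatment as none and the stage only as young or old, and ages, strain, sex and the bones used stand in none of the sources used here. All 6 libraries came from killed cells, and no label ties the libraries to different animals or cultures, so a p-value here weighs library-to-library spread that can be technical.

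Hox genes lie in 4 clusters, and each gene carries a paralogue number that follows its place in the cluster. Low numbers are expressed towards the head end of the embryo and high numbers towards the tail and the tips of the limbs, and adult mesenchymal cells keep part of that code according to the site they came from. Hox proteins bind DNA through the homeodomain, mostly together with Pbx and Meis cofactors, and Polycomb and Trithorax complexes hold the clusters silent or active.

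The homeobox is the stretch of sequence that members share most, and its end is printed here for the 4 highest members and for paralogues of Hoxa10 and Hoxc9 that had few reads. Each line is the 60-base end of the homeobox, 5′ to 3′, from GENCODE M21 transcripts of GRCm38, and the capitals mark the 18 bases that encode the core of the DNA-recognition helix.
Hoxa2: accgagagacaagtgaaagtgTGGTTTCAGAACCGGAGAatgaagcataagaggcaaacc
Hoxb6: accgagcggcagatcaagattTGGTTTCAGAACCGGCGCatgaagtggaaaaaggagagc
Hoxa10: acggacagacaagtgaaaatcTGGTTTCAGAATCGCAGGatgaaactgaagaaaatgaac
Hoxc10: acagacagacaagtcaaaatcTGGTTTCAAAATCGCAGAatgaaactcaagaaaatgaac
Hoxc9: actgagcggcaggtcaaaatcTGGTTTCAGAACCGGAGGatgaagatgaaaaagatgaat
Hoxb9: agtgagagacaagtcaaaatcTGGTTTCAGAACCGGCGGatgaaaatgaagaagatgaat
Among 25 members whose homeobox was read without ambiguity, the 17 pairs with the same paralogue number shared 74.4 to 93.9% of the 180 homeobox bases, with a median of 82.8%. Pairs from the same cluster with different numbers shared a median of 64.4%, and the remaining pairs 63.3%. Hoxc9 and Hoxb9 were identical at 83.9% of homeobox bases. Their longest run of identical bases in the annotated transcripts was 50 bases, while the longest run of Hoxa10 with another Hox gene was 21 bases, that of Hoxa2 24 and that of Hoxb6 37. Hoxc9 had 253 to 380 reads per library while Hoxb9 had 2 reads in a single library.

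Promoter windows are printed for the members with the highest and the lowest mean level among the 11 genes that matched a RefSeq entry. Each window holds the 250 bases before the RefSeq transcription start on GRCm38.p6, 5′ to 3′ on the gene's strand, with CG dinucleotides in capitals. Hoxa2 is read from chr6:52164832-52165081 on the minus strand and Hoxd4 from chr2:74721728-74721977 on the plus strand.
Hoxa2: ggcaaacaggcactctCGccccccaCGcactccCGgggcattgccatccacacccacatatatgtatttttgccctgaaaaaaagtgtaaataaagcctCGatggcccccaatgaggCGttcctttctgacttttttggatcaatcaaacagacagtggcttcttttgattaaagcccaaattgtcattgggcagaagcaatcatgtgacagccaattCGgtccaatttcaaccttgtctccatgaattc
Hoxd4: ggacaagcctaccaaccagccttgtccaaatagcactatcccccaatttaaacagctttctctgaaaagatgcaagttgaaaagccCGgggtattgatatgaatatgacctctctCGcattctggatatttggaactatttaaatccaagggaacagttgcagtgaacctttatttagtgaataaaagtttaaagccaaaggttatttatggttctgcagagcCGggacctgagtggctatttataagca
The Hoxa2 window held 6 CG dinucleotides and the Hoxd4 window 3. Over the 12 windows of these 11 genes the count ran from 3 to 28 with a median of 10, beside a median of 6 over 32851 windows of all genes. Of the 12 windows 4 held annotated exon bases, and those of Hoxa3 and Hoxc4 lay wholly in exons, while the 2 printed windows held none. On either strand, the TATA box letters TATAAA stood in 3 of 12 Hox windows, or 25%, and in 12.4% of all windows. The letters CCAAT stood in 6 of 12, or 50%, and in 33.9% of all windows. The motif TGATNNAT, a form of the joint Hox and Pbx site in which N is any base, stood in 2 of 12, or 16.7%, and in 7.68% of all windows. The homeodomain core TAATTA stood in 0 of 12 and in 4.84% of all windows. Matches of the 4 motifs overlapped each other in 0 of the 12 Hox windows and in 244 of all windows. A match describes these letters only.

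Depth and the state of the libraries bear on every level that follows. Deposited values are RPKM, reads scaled to the length of a gene and to the reads of the library, and 64881180 to 84535939 reads per library could be recovered from them. Among genes with 1 to 5 reads, 77.5 to 79.3% had an even number, so reads are not independent molecules. Any floor quoted takes reads as independent, so it understates counting error, and it covers no other error. Young replicate 1 stood apart: its log2 levels correlated at 0.949 and 0.962 with the other young libraries, which correlated with each other at 0.996, and at 0.959 to 0.968 with the old libraries. Col1a1, the main bone collagen, was at 1550 ± 424 RPKM in young and 1528 ± 31.8 in old (SD, n = 3). Bglap, which encodes osteocalcin and marks mature osteoblasts, averaged only 0.416 and 0.742 RPKM. Of 12 osteoblast markers, 8 reached 1 RPKM in at least 3 libraries. Of 13 blood cell markers with a row, 9 averaged under 0.1 RPKM and 1 averaged 7.72 RPKM, above every Hox gene. The summed level of the blood list was 8.29 to 9.55 RPKM in young and 9.29 to 10.5 in old. Ptprc, the pan-leukocyte marker, reached at most 0.00281 RPKM, endothelial markers summed to 0.111 to 0.152 RPKM in young and 0.117 to 0.139 in old, and chondrocyte markers to 34.8 to 73.6 and 53.4 to 57.0 RPKM. Their part in the Hox levels was not tested.

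The cells carried a low, mixed Hox code led by Hoxc9, Hoxa2, Hoxa10, Hoxb6 and Hoxa5, that is, by genes of 3 clusters with paralogue numbers from 2 to 10. These 5 genes were the 5 highest Hox genes in all 6 libraries and made up 67.2% of the summed Hox RPKM. Only the first 4 averaged at least 1 RPKM, 15 averaged between 0.1 and 1 RPKM and 7 averaged under 0.1 RPKM. The lowest value of any of the 5 leading genes was 0.734 RPKM, above the highest value of any other member, 0.603 RPKM. This gap holds in RPKM, which divides reads by the length of the row, and not in reads. Hoxb3, at 4251 bases, had 91 to 193 reads per library, and Hoxa5, at 1877 bases, had 107 to 159.

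**Figure D1:**
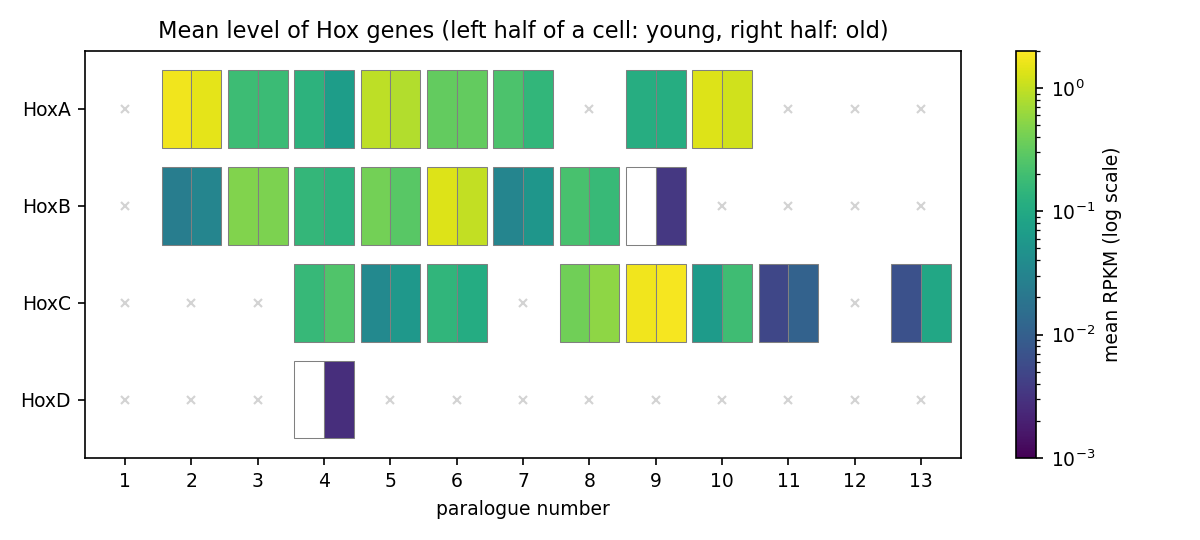
Mean RPKM of 25 Hox genes (colour, log scale) by cluster (rows) and paralogue number (columns), with young at the left and old at the right of each cell. White marks a group with 0 in every library of that group, and crosses stand where no gene is shown. The brightest cells are Hoxc9, Hoxa2, Hoxa10 and Hoxb6, the 4 genes with a mean of at least 1 RPKM, and they lie in 3 clusters.

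Hoxc9, a gene of the thoracic part of the code (chromosome 15, 102976439 to 102985099 on mm10), was at 2.28, 1.34 and 1.53 RPKM in young replicates 1 to 3 and at 1.85, 1.95 and 1.68 in old replicates 1 to 3. The old values lay inside the young range, and young replicate 1 was the highest library. Hoxc9 was the highest Hox gene in 4 libraries, and its mean of 1.77 RPKM put it at percentile 65.8 among all rows.

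Hoxa2, which patterns the second pharyngeal arch and is the most anterior of the leading genes (chromosome 6, 52162417 to 52164831), was at 1.71, 1.36 and 1.98 RPKM in young and 1.65, 1.25 and 1.47 in old. The ranges overlapped. Its row shared 267 exon bases, 15.0% of its length, with the predicted gene Gm28308. It was the highest Hox gene in young replicate 3.

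Hoxa10, which acts in the lumbar skeleton and the proximal limb (chromosome 6, 52231197 to 52240854), was at 1.40, 1.16 and 1.40 RPKM in young and 1.23, 1.09 and 1.14 in old. The groups overlapped through young replicate 2. Hoxb6, a gene of the thoracic and forelimb region (chromosome 11, 96292476 to 96301569), was at 0.989, 1.60 and 1.45 RPKM in young and 1.08, 0.985 and 0.940 in old. Here young replicate 1 fell among the old libraries while young replicates 2 and 3 stood above all of them.

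Hoxa5, which patterns the neck and upper thorax, was at 1.04, 0.734 and 1.02 RPKM in young and 0.775, 0.890 and 0.871 in old, so the old values lay inside the young range. The ordering among these genes was not sharp, since the range of each over the 6 libraries overlapped that of the next. Without young replicate 1 the order of Hoxa10 and Hoxb6 changed places, while the set of the 4 highest genes was the same without any 1 library. In these bulk samples fewer cells with a gene and less RNA of it per cell cannot be told apart.

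Below the leading genes, the named members were Hoxc8 (mean 0.465 RPKM), Hoxb3 (0.460), Hoxb5, Hoxa6, Hoxc4, Hoxb8, Hoxa7, Hoxa3 (0.181), Hoxb4 (0.143), Hoxc6, Hoxc10, Hoxa9 (0.112) and Hoxa4 (0.1002). Hoxa6 was at 0.0353, 0.560 and 0.359 RPKM in young and 0.257, 0.227 and 0.482 in old. Its low value in young replicate 1 rested on 2 reads, against 15 to 38 in the other libraries. The level of Hoxb3 cannot be separated from that of its antisense partner Hoxb3os, with which it shared 2250 exon bases, 52.9% of its length, because no source used here states whether counting was stranded.

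The members near silence were Hoxc13, Hoxc5 (mean 0.0467 RPKM), Hoxb7 (0.0436), Hoxb2 (0.0281), Hoxc11 (0.00779), Hoxb9 and Hoxd4. Hoxb9 was 0 in 5 libraries and 0.0103 RPKM in old replicate 2, and Hoxd4, the 1 HoxD gene analysed, was 0 in 5 libraries and 0.00803 RPKM in old replicate 1, each from 2 reads. For Hoxd4 a count of 0 would allow up to 3 reads, or 0.0120 to 0.0157 RPKM, if reads were independent. They are not, so this limit is too low. Hoxc11 and Hoxc13, the genes analysed with a number above 10, had at most 3 and 28 reads in any library.

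**Figure D2:**
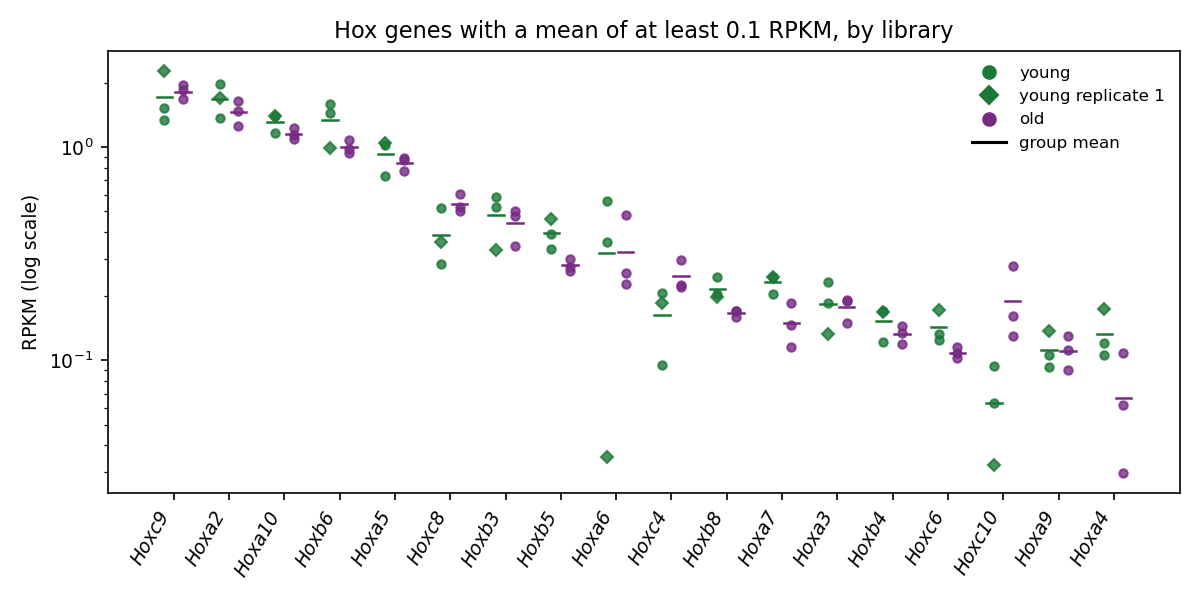
RPKM (log scale) of 18 Hox genes with a mean of at least 0.1 RPKM in each library, young in green with young replicate 1 as a diamond, old in purple and group means as bars. The 5 leading genes stand above the rest in every library, and young replicate 1 is the low point for Hoxa6 at 0.0353 RPKM.

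By cluster, HoxA held the largest share of the summed Hox level, 47.6%, followed by HoxC with 28.3% and HoxB with 24.1% over all 6 libraries. In values pooled by group HoxB and HoxC changed places: HoxB held 25.9% and HoxC 24.7% in young, and HoxB 22.1% and HoxC 32.2% in old. The young order rested on young replicates 2 and 3, since HoxC stood above HoxB in young replicate 1, as in every old library. The HoxA sum was 5.004, 4.58 and 5.53 RPKM in young and 4.48, 4.05 and 4.60 in old. The HoxB sum was 2.19, 3.03 and 2.72 RPKM in young and 2.00, 2.19 and 2.14 in old, and the HoxC sum 3.06, 2.02 and 2.49 in young and 3.02, 3.27 and 2.94 in old. The HoxA sums overlapped through young replicate 2 and the HoxC sums through young replicate 1. The HoxB sums lay lower in every old library, but young replicate 1 and old replicate 2 were equal to 3 digits.

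By position, numbers 1 to 4 gave 28.3% of the summed level, numbers 5 to 8 gave 38.3% and numbers 9 to 13 gave 33.4%. In each of the 3 stretches 1 or 2 genes carried most of the level: Hoxa2 in the first, Hoxb6 and Hoxa5 in the middle, and Hoxc9 and Hoxa10 in the last. The sum of all 26 genes was 10.2 ± 0.551 RPKM in young and 9.57 ± 0.0984 in old (SD, n = 3).

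No Hox gene passed the test between old and young. Only Hoxa2, Hoxa10, Hoxb6 and Hoxc9 reached 1 RPKM in at least 3 libraries and were tested with limma on log2(RPKM + 1), where a gene is called at an adjusted p under 0.05. None of the 4 was called and none had an unadjusted p under 0.05. Of 12015 genes 1.57% were called and 11.2% had an unadjusted p under 0.05. That 11.2% is also the limma background for the unadjusted counts of the other gene lists below, and the matching voom share is not given here. Limma's voom on recovered reads also called 0 of the 4, and 1.41% of all genes. Their median log2 fold change, old against young, was -0.11, beside 0.01 over all genes tested.

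Hoxb6 had the largest difference of the 4, with means of 1.35 ± 0.319 RPKM in young and 1.00 ± 0.0706 in old (SD, n = 3) and a log2 difference of -0.22 (SE 0.12, limma adjusted p = 0.611). For Hoxa2 the means were 1.68 ± 0.307 and 1.46 ± 0.200 RPKM, a log2 difference of -0.12 (SE 0.12, limma adjusted p = 0.871). For Hoxa10 they were 1.32 ± 0.138 and 1.15 ± 0.0695 RPKM, a log2 difference of -0.11 (SE 0.08, limma adjusted p = 0.798). Hoxc9 differed in the other direction, with means of 1.72 ± 0.499 and 1.83 ± 0.139 RPKM, a log2 difference of 0.07 (SE 0.14, limma adjusted p = 0.973).

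The call on Hoxb6 depended on young replicate 1. Without that library its log2 fold change was -0.34 (SE 0.07, limma adjusted p = 0.0138), and it was the 1 of 4 Hox genes called. In that comparison 32.6% of all 12015 genes were called, 19.4% as lower, so the share among the Hox genes was near the background. Hoxc9 was not called without that library either, at a log2 difference of 0.21 (SE 0.07, limma adjusted p = 0.0622).

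Most Hox genes lie under 1 RPKM, so a second fit, chosen after the data were seen, used log2(RPKM + 0.1) and genes with at least 0.1 RPKM in at least 3 libraries. It tested 19 Hox genes and called none with limma, where 1.23% of 17280 genes were called. Hoxc10 alone had an unadjusted p under 0.05, and it met the filter through the old libraries alone, so its p is no support for a difference. Voom called none of the 19 and 1.23% of all genes, with 3 at an unadjusted p under 0.05, Hoxb5, Hoxa7 and Hoxc10. The share of all 17280 genes at that unadjusted threshold is not given here, so these counts show neither an excess nor a lack. The log2 fold change was negative in 14 of the 19, with a median of -0.12, while 8302 of all 17280 genes were negative and their median was 0.01. The count was also 14 under median centring, under quantile normalization and without young replicate 1, where Hoxa6 became negative and Hoxa9 positive, and 13 with voom. Without young replicate 1, Hoxb6 was called lower in old (log2 fold change -0.56, limma adjusted p = 0.0219), as 1 of 19, where 11.1% of all genes were called lower.

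The direction differed by cluster in the means. Old was lower than young in 8 of 9 tested HoxA genes and 5 of 5 HoxB genes, and higher in 4 of 5 HoxC genes, and the counts were the same without young replicate 1. Hoxc10 is among the 4 and met the filter through the old libraries alone, so that its direction was fixed by the filter. Leaving it out, 3 of 4 HoxC genes were higher in old. Over the 19 genes the ratio of summed RPKM, old over young, was 0.868 for HoxA, 0.780 for HoxB and 1.18 for HoxC. Without young replicate 1 it was 0.865, 0.718 and 1.33. The HoxC ratio without Hoxc10 was 1.13, or 1.29 without young replicate 1 as well. Genes of a cluster are neighbours that share regulation and are not independent, and the difference between clusters was not tested.

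The ratio of the HoxC sum to the HoxA sum was 0.611, 0.441 and 0.449 in young and 0.675, 0.806 and 0.639 in old. These groups did not overlap, but the HoxC sum includes Hoxc10, whose direction the filter fixed, and Hoxc13, which had few reads. Hoxc10 and Hoxc13 were at 0.0323 and 0 RPKM in young replicate 1 and at 0.130 and 0.141 in old replicate 3. Without both genes in the HoxC sum, young replicate 1 no longer lies below old replicate 3. The ratio of HoxC to HoxB was 1.39, 0.667 and 0.915 in young and 1.51, 1.49 and 1.37 in old. The HoxC to HoxB ratio overlapped through young replicate 1. These ratios were chosen after the values were seen and are given without a test.

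**Figure D3:**
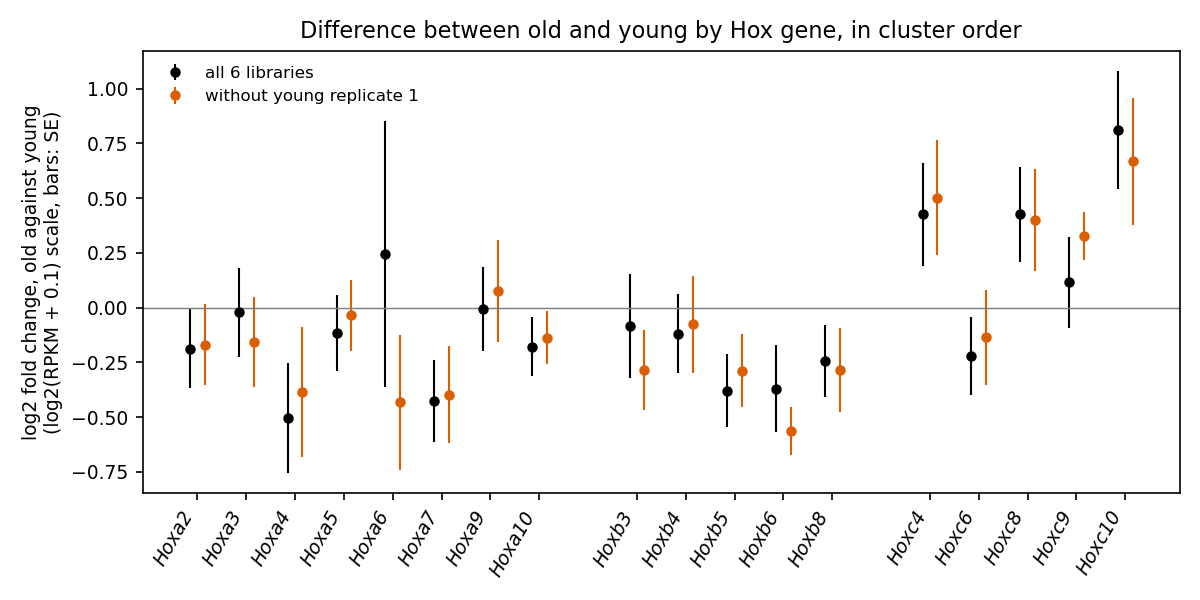
Log2 fold change (old minus young on log2(RPKM + 0.1)) for 18 Hox genes in cluster order, with limma's standard error as bars, for all 6 libraries (black) and without young replicate 1 (orange). Points for HoxA and HoxB lie mostly below 0 and 4 of 5 HoxC points above it. Among these 4, Hoxc10 met the filter through the old libraries alone. Hoxb6 without young replicate 1 is the single gene called.

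The groups did not overlap in 6 of the 19 genes, 2 higher and 4 lower in old, where 19.5% of the 17280 genes did not overlap. Without Hoxc10, whose direction the filter fixed, these were 5 of 18, 1 higher and 4 lower. Hoxb5 was at 0.459, 0.393 and 0.333 RPKM in young and 0.263, 0.276 and 0.298 in old, each old library below each young one (log2 fold change -0.38, SE 0.17, limma adjusted p = 0.512). Hoxa7, a gene of the thoracic region, was at 0.247, 0.206 and 0.247 RPKM in young and 0.115, 0.147 and 0.185 in old (log2 fold change -0.43, SE 0.19, limma adjusted p = 0.504). Neither difference passed the test. Hoxb5 shared 100 exon bases with its antisense partner Hoxb5os and Hoxa7 shared 586 with Hoxaas3.

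Hoxb8 was at 0.199, 0.205 and 0.247 RPKM in young and 0.171, 0.171 and 0.160 in old (limma adjusted p = 0.755). Hoxc6 was at 0.173, 0.134 and 0.125 RPKM in young and 0.108, 0.116 and 0.103 in old (limma adjusted p = 0.822), the 1 HoxC gene of the 5 with the lower mean in old. Both separated the groups by a narrow gap.

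Among the HoxC genes that were higher in old by mean, Hoxc4 was at 0.186, 0.0953 and 0.207 RPKM in young and 0.295, 0.222 and 0.227 in old (log2 fold change 0.43, SE 0.23, limma adjusted p = 0.652). Hoxc10, which like Hoxa10 acts in the lumbar region and the hind limb, was at 0.0323, 0.0945 and 0.0632 RPKM in young and 0.161, 0.278 and 0.130 in old. The groups did not overlap for either gene. For Hoxc10 the log2 fold change was 0.81 (SE 0.27, limma adjusted p = 0.336), from 4 to 14 reads in young and 20 to 40 in old. Hoxc10 shared 166 exon bases, 8.7% of its length, with Hoxc5 on the same strand.

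Hoxc8 was at 0.359, 0.282 and 0.520 RPKM in young and 0.501, 0.524 and 0.603 in old, which overlapped through young replicate 3 (log2 fold change 0.43, SE 0.22, limma adjusted p = 0.600). Hoxc13, the most posterior gene analysed, was 0, 0 and 0.0196 RPKM in young and 0.0625, 0.0754 and 0.141 in old, that is 4 reads in all young libraries and 13, 14 and 28 in old. It did not overlap between groups, and it lay under both filters. Counted over all 26 members, 3 were higher and 4 lower without overlap, where 14.3% of all rows did not overlap.

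Young replicate 1 took no single direction among the Hox genes. Over the 19 members it lay above both other young libraries in 6 and below both in 6. The 5 leading genes were shared by all 6 libraries all the same.

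Of 10 genes for Hox cofactors, with the Pbx partner gene Pbxip1 counted among them, 6 averaged above Hoxc9 in RPKM and 1 averaged under 0.1 RPKM. Of these 10 Pbx, Meis and related genes 8 were tested and none was called by limma or by voom, with 0 at an unadjusted p under 0.05 in either and a median log2 fold change of -0.06. Pbxip1, which encodes a cytoplasmic partner of Pbx proteins, was at 20.1 ± 2.56 RPKM in young and 17.2 ± 0.10 in old (limma adjusted p = 0.642). Meis2, a cofactor of limb and head mesenchyme, averaged 6.15 ± 1.07 RPKM in young libraries and 6.69 ± 0.178 in old libraries. Without young replicate 1, 5 of the 8 were called lower in old, among them Pbx3, Pbxip1, Meis3 and Pknox2, where 19.4% of all genes were called lower.

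None of the noncoding genes inside the clusters averaged above Hoxc9, and 6 of the 11 with a row averaged under 0.1 RPKM. Of 17 listed, 11 had a row and 1 was tested, Hotairm1 of the HoxA cluster. It was at 1.22 ± 0.337 RPKM in young and 1.00 ± 0.174 in old (limma adjusted p = 0.868). Hoxb5os was at 0.487, 0.777 and 0.537 RPKM in young and 0.289, 0.3999 and 0.409 in old. The groups did not overlap, as for its partner Hoxb5, with which it shares exon bases.

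Among the genes flanking the clusters, which share the chromosome region but not the code, 8 of the 13 with a row averaged above Hoxc9 in RPKM and 3 averaged under 0.1 RPKM. Of 17 listed, 10 were tested, none was called by limma or voom, and 1 had an unadjusted p under 0.05 in each. That gene under limma was Smug1, a uracil repair enzyme beside HoxC, at 1.18 ± 0.0447 RPKM in young and 0.878 ± 0.0807 in old (limma adjusted p = 0.314). Tax1bp1 averaged 47.6 and 48.3 RPKM, Atp5g3 27.4 and 28.4 RPKM, and Skap2, beside HoxA, 11.0 and 9.34 RPKM in young and old.

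Polycomb genes, which encode the complexes that keep Hox clusters silent, were tested in 28 of 31 cases. None was called by limma or voom, with 1 and 0 at an unadjusted p under 0.05. Ezh2, the histone H3 methyltransferase of the complex, was at 19.1, 24.4 and 24.1 RPKM in young and 18.7, 17.4 and 18.5 in old (log2 fold change -0.29, SE 0.12, limma adjusted p = 0.439). The groups did not overlap, although young replicate 1 lay close to the old libraries. Phc2, Rbbp7 and Bmi1 did not pass the test either, with Rbbp7 the highest member at means of 195.8 and 186.1 RPKM. With young replicate 1 left out, 1 of the 28 was called higher and 10 lower, where 13.2% of all genes were called higher and 19.4% lower.

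Trithorax genes, which oppose Polycomb, were listed together with Ctcf, the gene of a boundary factor, and 18 of the 19 were tested. None was called by limma or voom, with 1 at an unadjusted p under 0.05 in each. Psip1, which encodes a chromatin reader that binds Trithorax proteins, was at 127.9, 112.0 and 111.6 RPKM in young and 88.9, 86.3 and 87.6 in old, with no overlap (log2 fold change -0.41, SE 0.09, limma adjusted p = 0.130). When young replicate 1 was left out, 12 of the 18, Ctcf among them, were called lower and none higher, beside 19.4% of all genes called lower.

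Retinoic acid is the classic inducer of 3′ Hox genes. Of 18 genes of its pathway 16 had a row and 6 were tested, and none was called by limma or voom, with 0 at an unadjusted p under 0.05 in either. Crabp2, a binding protein that carries retinoic acid to the nucleus, was at 78.4 ± 21.7 RPKM in young and 80.2 ± 2.49 in old. Its values were 102.9, 70.5 and 61.7 RPKM in young and 82.2, 81.0 and 77.4 in old. With young replicate 1 left out, Crabp2 was called higher in old (log2 fold change 0.28, SE 0.07, limma adjusted p = 0.0251). It was the 1 of the 6 called there, where 13.2% of all genes were called higher. Cyp26a1, the enzyme that degrades retinoic acid, lay under the 1 RPKM filter at 0.0695, 0.145 and 0.0816 RPKM in young and 0.367, 0.389 and 0.405 in old. In the fit of low genes it rose in old (log2 fold change 1.31, SE 0.20, limma adjusted p = 0.0454), and voom called it as well (adjusted p = 0.0398). It was the single pathway gene called in that fit. Cyp26a1 met the filter through the 3 old libraries and 1 young one, and with no filter limma also called it (adjusted p = 0.0221). The call was lost without young replicate 3 or without any 1 old library (limma adjusted p = 0.206 to 0.253).

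Several other transcription factors of limb and head position stood far above the Hox genes in RPKM. Of 47 listed, 38 had a row and 20 were tested, 17 averaged above Hoxc9, the highest Hox gene, and 12 averaged under 0.1 RPKM. Tbx15, which shapes the scapula and limb skeleton, was at 39.3, 33.1 and 34.6 RPKM in young and 28.7, 30.5 and 28.8 in old, above the sum of all 26 Hox genes, 9.51 to 10.7 RPKM. Prrx2, a factor of limb and facial mesenchyme, was at means of 30.5 and 32.7 RPKM. Emx2, a factor of the scapula and pelvis that was chosen after its values were seen, was at 12.6 to 17.5 RPKM. The head mesenchyme factor Alx1 (7.15 to 7.94 RPKM) and Pax3 of neural crest and muscle precursors (5.27 to 5.89 RPKM), chosen in the same way, were present in every library.

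The factors that tell limbs apart were near 0. Tbx4 of the hind limb had 0.00728 RPKM in old replicate 3 and 0 elsewhere. Tbx5 of the forelimb had 0.00506 and 0.00530 RPKM in old replicates 1 and 3 and 0 elsewhere, and Pitx1 was not analysed here.

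**Figure D4:**
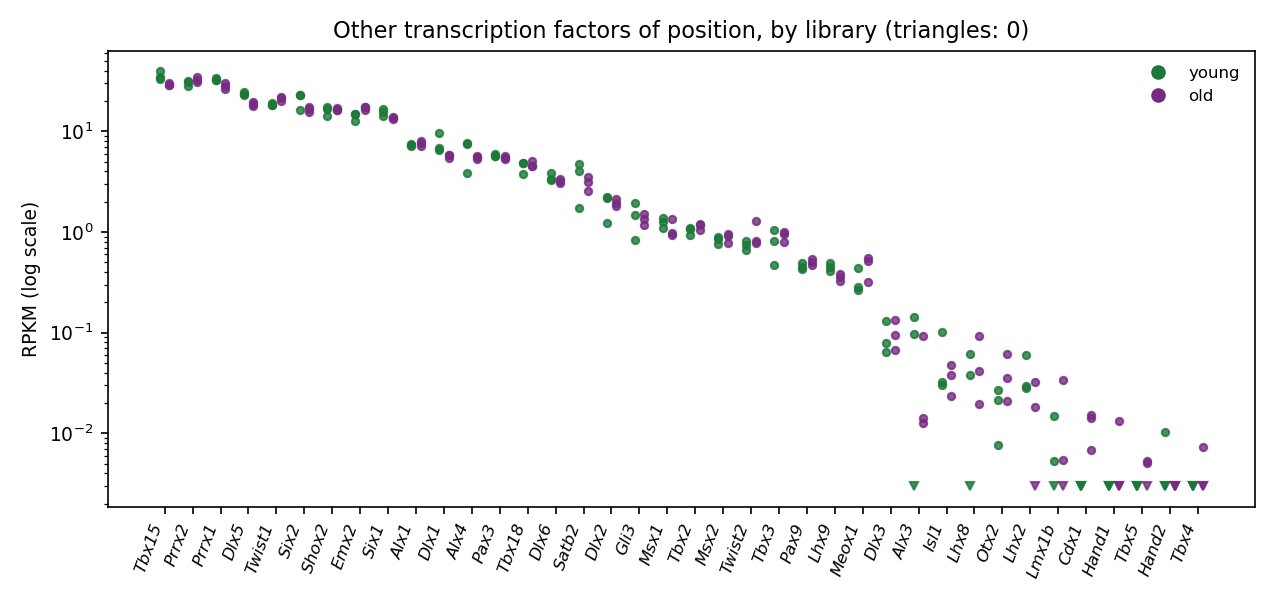
RPKM (log scale) in each library of the 38 other transcription factors of position that had a row, young in green and old in purple, with triangles for 0. Tbx15 leads at 28.7 to 39.3 RPKM, and Tbx4 and Tbx5 lie at the bottom with 0 in most libraries.

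None of the 20 tested factors of position was called by limma or voom, with 4 at an unadjusted p under 0.05 in each. Dlx5, a factor of osteoblasts and of the jaw, was at 22.8, 23.2 and 24.7 RPKM in young and 18.6, 19.5 and 17.7 in old (log2 fold change -0.33, SE 0.09, limma adjusted p = 0.189). The groups did not overlap. For Tbx15 the log2 difference was -0.27 (SE 0.10, limma adjusted p = 0.364), also without overlap. After young replicate 1 was left out, Emx2 was called higher in old (log2 fold change 0.18, SE 0.05, limma adjusted p = 0.0412) and 7 of the 20 were called lower, among them Dlx5 and Tbx15, where 13.2% of all genes were called higher and 19.4% lower.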

How the data were processed

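Messenger RNA of 3 young and 3 old libraries was analysed. The authors deposited RPKM per gene, reads scaled for gene length and library depth, with exon positions. Per the submitters' processing notes, fastp, STAR, HTSeq, edgeR and mm10 were used. The sources used here give no version, setting, annotation or strandedness. Multiplied by gene length and depth, 100% of values came out as whole reads within 0.01.

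Old and young libraries were compared on log2(RPKM + 1) with limma (version 3.58.1, under R 4.3.3). The fit had a term for group alone and a variance trend, and took all 6 libraries and genes with at least 1 RPKM in at least 3 libraries. Tests were two-sided with Benjamini-Hochberg adjustment over all genes tested, and calls were made at an adjusted p under 0.05. Fold changes on this scale understate the change of low genes, so a fit on log2(RPKM + 0.1) with genes of at least 0.1 RPKM in 3 libraries was added after the data were seen. Limma's voom on recovered reads was an alternative. The fits were run on simulated reads with known changes. Those reads had the same spread in every library, with none standing apart as young replicate 1 does. The simulation therefore does not show how the fits behave with such a library.

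Counts, sums and fits cover all members and all listed genes, but single values of some genes are not reported here, and 1 Hox gene is left out of the plots. Hox genes are named with values per library where the mean was at least 1 RPKM. From each other list the rule names called genes, the 2 tested genes of smallest p and the 2 of highest mean, plus Pitx1, Tbx4 and Tbx5. Values of further genes were chosen after they were seen. The members and lists were chosen with earlier results of these data known. Chi-square statistics per degree of freedom between replicates were 9.51 to 482.6, larger than sampling noise for every pair, so all 6 were kept as separate libraries. Hox sequences came from GENCODE M21 transcripts and from RefSeq promoters of GRCm38.p6, and exon overlaps from the positions in the deposited table.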

Additional observations from a re-analysis of the deposited data

How the results depend on the processing

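Leaving out each library in turn gave 80 to 3918 called genes in place of 189, 0 to 1 Hox genes, 0 to 5 cofactors, 0 to 2 cluster neighbours, 0 to 11 Polycomb genes, 0 to 12 Trithorax genes, 0 to 1 retinoic acid genes and 0 to 8 factors of position, each upper limit without young replicate 1. The number of Hox genes called in the fit of low genes was 0 to 1 in the same way, and voom without young replicate 1, chosen after seeing the data, called 1 (Hoxb6, adjusted p = 0.00881) beside 29.8% of all genes. Weighting libraries by their quality called 5076 genes or 42.2%, 2119 higher and 2957 lower, among them 2 of 4 Hox genes (Hoxb6 and Hoxc9), 2 of 19 Hox genes in the fit of low genes (Hoxb6 and Hoxc10), 5 cofactors, 3 neighbours, 13 Polycomb, 10 Trithorax, 2 retinoic acid genes and 11 factors of position. In the fit of low genes, library weights called 5001 of all 17280 genes, or 28.9%. Hoxc10 met the filter of that fit through the old libraries alone. An adjusted p under 0.1 called 316 genes, 254 higher and 62 lower, and 0 of 4 Hox genes. With no filter, and with a filter at 0.1 RPKM, 1 retinoic acid gene was called, Cyp26a1. The cause of these differences was not tested.

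The labels do not say whether replicate numbers pair the libraries. Deviations of same-numbered libraries from their group means correlated at -0.026, -0.436 and 0.329. Young replicates 2 and 3 went alike, at 0.431 and 0.329 with old replicate 3 and at -0.436 and -0.299 with old replicate 2. Deviations from a group mean are tied to each other and young replicate 1 stood apart, so these correlations cannot decide on pairing. With the replicate block 82 genes were called, all higher in old, 0 of 4 Hox genes were called and Hoxb6 had an adjusted p of 0.95 by limma. The call on Cyp26a1 in the fit of low genes was lost with the block (limma adjusted p = 0.211).

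Among single genes, 15 values of the test at 1 RPKM and 13 of the fit of low genes changed sign under an alternative, all in genes that were not called. When libraries were left out, the log2 fold change of Hoxc9 ranged from -0.029 to 0.21, Meis2 from -0.017 to 0.18, Tax1bp1 from -0.084 to 0.11, Atp5g3 from -0.031 to 0.14, Dpy30 from -0.11 to 0.027, Crabp2 from -0.087 to 0.28 and Rarg from -0.089 to 0.19. In the fit of low genes Hoxa3 ranged from -0.16 to 0.10, Hoxa6 from -0.43 to 0.71, Hoxa9 from -0.074 to 0.078 and Hoxb3 from -0.28 to 0.052. Library weights turned Meis2 to -0.024, Hotairm1 to 0.11, Tax1bp1 to -0.047, Wdr5 to -0.0048, Rarg to -0.086, Hoxa6 to -0.26 and Hoxa9 to 0.12. Quantile normalization turned Tax1bp1 to -0.00090, voom turned Hoxa9 to 0.0071, and voom without young replicate 1 gave -0.53 for Hoxa6 and 0.15 for Hoxa9. Count packages were not used on these RPKM values. With 3 reads or fewer in every library, differences in Hoxb9, Hoxc11 and Hoxd4 were not detectable at this depth.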
